A study of Mus musculus with 6 samples.

Results

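The chromatin of 9 genes that govern the naive and memory states of T cells was examined in Th9, Th2 and Th17 cells: Tcf7, Lef1, Satb1, Bach2, Foxo1, Klf2, S1pr1, Id3 and Bcl6. All ATAC-seq peaks within each gene body plus 50 kb on either side were taken from 6 lists, 2 per subset. Peaks that overlapped or touched were joined across lists into elements, and an element counted as called in a library whose list held a peak there. The 9 windows held 231 of the 236017 elements of the genome. The libraries came from wild-type C57BL6/J splenic naive T cells cultured under polarizing conditions. By the study's methods, naive CD4+ cells were activated with anti-CD3 and anti-CD28 antibodies, with IL-4, IL-2 and anti-IFNγ for Th2, with the same additions plus TGF-β1 for Th9, and with IL-6, TGF-β1, IL-23, IL-1β and antibodies to IFNγ, IL-4 and IL-2 for Th17. No library of naive or memory cells was analysed here, so each comparison is between cultured subsets. The labels do not say whether replicates 1 and 3 of a subset came from separate cultures or animals, and p-values then measure only the spread between these samples, which may be technical.

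TCF-1 and LEF-1, encoded by Tcf7 and Lef1, are related HMG-box factors that maintain naive and stem-like memory T cells, and BACH2 restrains effector differentiation. FOXO1 drives Klf2, and KLF2 in turn drives S1pr1, whose product is the sphingosine-1-phosphate receptor that lets lymphocytes leave lymphoid organs. ID3 opposes E proteins, BCL6 directs T follicular helper and memory precursor cells, and SATB1 is a chromatin organizer that is abundant in thymocytes and naive T cells.

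The lists held 142213 and 101102 peaks in Th9 (replicates 1 and 3, the order kept throughout), 142079 and 120198 in Th2, with 127073 and 100317 in Th17. Background coverage, the mean number of fragments over a position against which the peaks had been called, was 5.65 fragments in Th9 replicate 1 and between 11.2 and 17.7 in the other 5 libraries. The weakest call had a fold enrichment of 2.11 in Th9 replicate 1 and of 1.71 to 1.83 elsewhere, so weak sites were least detectable in that Th9 library. The promoters of the T cell genes Cd3e, Cd3d, Cd28 and Cd5 were called in 6 of 6 libraries and that of Cd4 in 4. Promoters of Cd8a, Pax5, Ms4a1, Lyz2, Csf1r, Itgam and Ncr1 were called in 0 libraries, that of Klrb1c in 1 and that of Cd8b1 in 6.

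A sequence was read from GRCm38.p6, the assembly of the mm10 build, for the strongest element of each subset pattern described further on, and for the element with the lowest adjusted p between subsets. Each window has 300 bases around the middle of the strongest peak of the element, on the plus strand, and overlaps 0 annotated exons. Capitals mark every match, on either strand, to 5 words: TGANTCA of AP-1, TTCNNNGAA of STAT factors, AGATAA of GATA factors, CTTTGA of TCF and LEF factors and AACCACA of RUNX factors. The element called only in Th9 lay at chr16:24016195-24016494, upstream of Bcl6, and that called only in Th2 lay at chr4:32541060-32541359, in an intron of Bach2. The element called only in Th17 lay at chr3:52398019-52398318, beyond the 3′ end of Foxo1. The remaining windows all lay upstream of S1pr1, at chr3:115742884-115743183 for Th9 with Th2, at chr3:115748912-115749211 for Th2 with Th17 and at chr3:115761334-115761633 for the element called in every library.
Bcl6, Th9 only: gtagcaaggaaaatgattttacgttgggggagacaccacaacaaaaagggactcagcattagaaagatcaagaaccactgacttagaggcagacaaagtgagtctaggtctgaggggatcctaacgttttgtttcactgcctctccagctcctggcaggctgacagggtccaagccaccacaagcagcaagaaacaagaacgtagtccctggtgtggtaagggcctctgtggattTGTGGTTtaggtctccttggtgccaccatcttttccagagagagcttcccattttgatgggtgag
Bach2, Th2 only: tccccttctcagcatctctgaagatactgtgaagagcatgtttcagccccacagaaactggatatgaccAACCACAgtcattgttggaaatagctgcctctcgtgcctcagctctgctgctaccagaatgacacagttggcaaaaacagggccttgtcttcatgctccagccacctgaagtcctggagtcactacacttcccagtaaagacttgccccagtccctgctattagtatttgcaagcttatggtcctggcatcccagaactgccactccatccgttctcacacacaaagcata
Foxo1, Th17 only: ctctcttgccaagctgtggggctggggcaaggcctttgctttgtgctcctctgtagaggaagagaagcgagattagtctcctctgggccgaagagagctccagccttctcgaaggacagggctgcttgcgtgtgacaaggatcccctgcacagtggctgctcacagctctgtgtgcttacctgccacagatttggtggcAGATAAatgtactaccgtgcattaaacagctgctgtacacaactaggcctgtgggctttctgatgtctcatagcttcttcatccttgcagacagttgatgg
S1pr1, Th9 and Th2: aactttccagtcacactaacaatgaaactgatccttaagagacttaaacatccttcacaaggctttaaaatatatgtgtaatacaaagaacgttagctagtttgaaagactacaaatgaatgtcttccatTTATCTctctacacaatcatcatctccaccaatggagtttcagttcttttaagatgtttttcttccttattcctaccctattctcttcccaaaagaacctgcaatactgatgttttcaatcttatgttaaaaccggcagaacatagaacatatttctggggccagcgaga
S1pr1, Th2 and Th17: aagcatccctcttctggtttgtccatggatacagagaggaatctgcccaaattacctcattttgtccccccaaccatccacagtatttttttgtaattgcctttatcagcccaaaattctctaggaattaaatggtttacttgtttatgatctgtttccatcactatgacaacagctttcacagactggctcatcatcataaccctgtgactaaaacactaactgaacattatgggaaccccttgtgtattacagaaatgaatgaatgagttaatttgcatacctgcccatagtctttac
S1pr1, every library: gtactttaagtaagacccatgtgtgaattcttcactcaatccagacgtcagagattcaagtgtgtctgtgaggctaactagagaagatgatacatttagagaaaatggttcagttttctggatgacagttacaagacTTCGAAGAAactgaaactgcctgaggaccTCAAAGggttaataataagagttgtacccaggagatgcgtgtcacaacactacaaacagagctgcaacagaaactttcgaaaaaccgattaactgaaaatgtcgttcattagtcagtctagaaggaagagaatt

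The Bcl6 and Bach2 windows each held 1 RUNX word, the Foxo1 window and the S1pr1 window of Th9 with Th2 each held 1 GATA word, and the S1pr1 window of Th2 with Th17 held none of the 5. The S1pr1 window called in every library held 1 STAT word, starting at base 138 of the window, and 1 TCF and LEF word, starting at base 167. Over the 231 elements the TCF and LEF word was found in 24.2%, against 16.8% of all elements with a window of the same length. The AP-1 word was in 15.6% against 12.3%, the STAT word in 10.8% against 8.51%, the GATA word in 11.7% against 11.7% and the RUNX word in 9.52% against 7.20%. These are counts of letters, given without a test, and a match is not evidence of binding.

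To ask how much of the accessible landscape of these genes differed between the subsets, elements were first counted. Of the 231 elements, 88 (38.1%) were called in every library, against 21.4% of elements genome-wide. A single library called 50 (21.6%), against 87734 of the 236017 elements genome-wide. All 11 promoter elements of the 9 genes were called in every library, as were 29 of 100 intronic and 28 of 81 intergenic elements. Genome-wide shares for these kinds of element were not computed. The libraries called 135 and 150 elements in Th9, 158 and 172 in Th2, with 149 and 128 in Th17. The means were 142.5 ± 10.6 in Th9, 165 ± 9.90 in Th2 and 138.5 ± 14.8 in Th17 (SD, n = 2 each). Both Th2 libraries exceeded the other 4, an order that 13% of single gene windows also had. The share for sets of 9 windows was not computed, so this order is no result about these genes. The difference in count between libraries of different subsets was 20 on average and that within a subset 16.7 ± 3.79, a difference of 3.33 (one-sided exact permutation test, p = 0.333, adjusted over 3 measures 0.333). The smallest p that the 15 arrangements allow is 0.0667, so the test cannot settle whether the subsets differ in count. At equal list length the difference changed sign, to -3.67.

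Counts by gene did not move together. Among the HMG-box pair, Tcf7 (chr11:52252371-52283014, minus strand) had 14 and 16 elements in Th9, 13 and 11 in Th2, with 14 and 14 in Th17, and it was the member with fewer elements in both Th2 libraries than in any other. Windows with that order made up 1.43% of 21951 protein-coding gene windows. The order rested on 1 element, and with a fold enrichment of at least 4 required of each peak it was lost, at 5 and 3 elements in Th9, 3 and 4 in Th2, with 4 and 2 in Th17. With −log10 q of at least 5 it was kept, at 8 and 9, 5 and 7, and 9 and 10 in the same order of subsets. At equal list length it was also kept, at 13 and 16, 10 and 10, and 12 and 14. Lef1 (chr3:131110471-131224356, plus strand) had 22 and 24, 22 and 27, and 25 and 23, with overlapping groups. Called in every library were 16 of the 30 Lef1 elements and 7 of the 21 Tcf7 elements.

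Satb1 (chr17:51736187-51833290, minus strand) had 14 and 11 elements in Th9, 23 and 25 in Th2, with 17 and 12 in Th17. The bases under peaks in its window were 13.6 and 13.7 kb in Th9, 35.5 and 38.5 kb in Th2, with 17.4 and 15.8 kb in Th17. Thus both Th2 libraries stood clear of the others by number and by covered length. Over the whole genome the Th2 lists also covered the most, 117.5 and 108.2 Mb against 80.7 to 101.8 Mb elsewhere. No share of gene windows was computed for covered length. Bach2 (chr4:32238804-32586108, plus strand) had the most elements, 69, and was called at 37 and 43 of them in Th9, 52 and 55 in Th2, with 38 and 29 in Th17. Satb1 and Bach2 were the 2 members with more elements in both Th2 libraries than in any other, an order seen in 13% of gene windows, so a share of this size among 9 genes is no result about them as a group. At a fold enrichment of at least 4 the Satb1 order was lost, at 3 and 4 in Th9, 4 and 6 in Th2, with 3 and 4 in Th17. It was kept with −log10 q of at least 5 (6 and 6, 13 and 16, and 9 and 9) and at equal list length (12 and 11, 18 and 22, and 16 and 12).

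In the FOXO1, KLF2 and S1PR1 axis, Foxo1 (chr3:52268336-52353221, plus strand) had 8 and 7 elements in Th9, 8 and 10 in Th2, with 15 and 11 in Th17. It was the 1 member with more elements in both Th17 libraries than in any other, against 2.35% of gene windows. The order rested on 1 element, 11 against 10. At a fold enrichment of at least 4 both Th17 libraries had fewer Foxo1 elements than any other (1 and 1, against 2 and 2 in Th9 and 2 and 3 in Th2), while with peaks limited to those of −log10 q 5 or more Th17 (6 and 7) was no longer above Th2 (4 and 9). Klf2 (chr8:72319033-72321656, plus strand) had 13 and 16, 12 and 13, and 11 and 12 elements in the same order of subsets. S1pr1 (chr3:115710433-115715072, minus strand) had 13 and 14, 16 and 15, and 13 and 15. In Klf2 and in S1pr1 the subsets overlapped or touched, and S1pr1 had 11 of 18 elements in every library.

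Id3 (chr4:136143497-136145755, plus strand) had 9 and 12 elements in Th9, 8 and 12 in Th2, with 13 and 9 in Th17, with no separation of the subsets. Bcl6 (chr16:23965052-23988852, minus strand) had the fewest elements, 10, of which 5 and 7 were called in Th9, 4 and 4 in Th2, with 3 and 3 in Th17. Thus both Th9 libraries had more Bcl6 elements than any other, an order of 7.36% of gene windows, and both Th17 libraries had fewer, an order of 15.2%. A difference of 1 element decided both orders, and neither was kept when peaks were limited to those of 4-fold or more, or of −log10 q 5 or more.

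**Figure D1:**
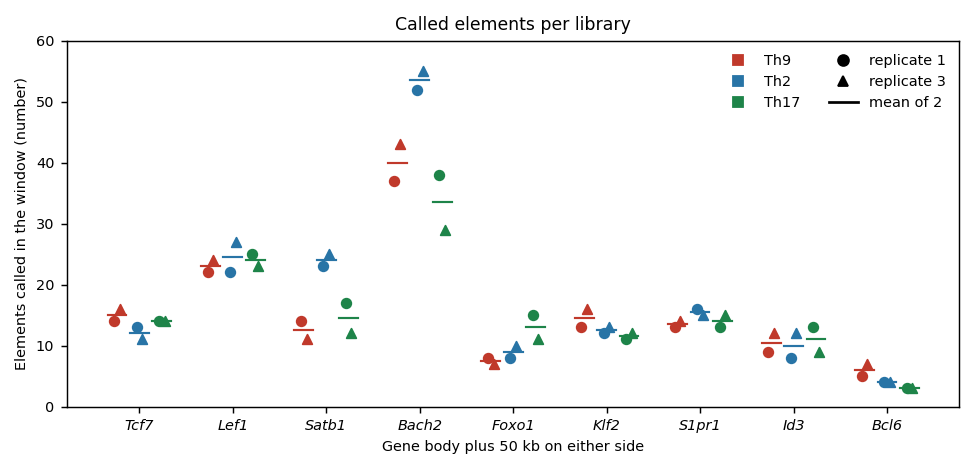
Number of elements called in each library (vertical axis) in the window of each gene (horizontal axis), coloured by subset, with circles for replicate 1, triangles for replicate 3 and lines for the mean of 2. Both Th2 libraries lie above the rest at Satb1 (23 and 25) and Bach2 (52 and 55), and both Th17 libraries at Foxo1 (15 and 11).

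Promoters of the 9 genes were open in all 3 subsets. A promoter spanned 1000 bp before and 100 bp after an annotated start, and strength was the percentile of a peak's fold enrichment within its own list. This percentile was not adjusted for the width of the peak. The main start of 8 genes was called in 6 libraries and that of Id3 in 5, where the Th9 replicate 1 peak ended outside the span but within the same element. The Tcf7 promoter was the weakest of the 9 in Th2 and Th9, at percentiles 76.6 and 76.8 in Th9, 64.1 and 58.5 in Th2, with 82.8 and 78.4 in Th17. The Lef1 promoter lay at 91.3 and 89.8 in Th9, 92.1 and 89.9 in Th2, with 79.1 and 81.3 in Th17. For the rest, the percentiles were between 86.5 and 90.0 at Satb1, 89.3 and 92.3 at Bach2, 81.2 and 89.8 at Foxo1, 89.2 and 94.9 at Klf2 and 78.6 and 87.1 at Id3 where called. An internal Bach2 start at position 32417435 was called in 0 libraries. An internal Satb1 start at position 51810919 was called in 3 libraries, Th9 replicate 3 and both Th2 libraries, where the peaks of Th2 were 3813 and 3904 bp wide.

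Elements called in both libraries of a subset or pair of subsets, and in none of the rest, numbered 31, of which 18 belonged to 1 subset and 13 to a pair. Called only in Th2 were 12 (5.19% of the 231, against 2.87% genome-wide), only in Th9 2 (0.866% against 1.31%) and only in Th17 4 (1.73% against 1.7%). Th9 and Th2 alone shared 9 (3.90% against 2%), Th2 and Th17 alone shared 4 (1.73% against 1.55%) and Th9 and Th17 alone shared 0 (against 0.296%). A further 50 elements were called in a single library and 62 in some other part of a subset. No promoter was among the 31, which comprised 15 intronic, 14 intergenic and 2 exonic elements.

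These 31 elements were narrower and weaker than the 88 called in every library. The 12 of Th2 had a median width of 397 bp and a median percentile of 52.8, against 458 bp and 39.5 for the same pattern genome-wide, and the 88 had 1711.5 bp and 80.3, against 1425 bp and 74.3. The 9 of Th9 with Th2 had 1070 bp and 69.4, against 841 bp and 61.2. In 22 of the 31, every fold enrichment was at or above the weakest call of each library without a peak. In the other 9, all of them without a call in Th9, at least 1 fold enrichment was under the weakest call of Th9 replicate 1, so a site of that strength could not have been listed there. With a fold enrichment of at least 4 required of each peak, none of the 31 kept all its calls and 7 kept some of them. With 1 library standing for its subset, the number called only in Th9 was 17 without replicate 1 and 6 without replicate 3, that only in Th2 25 and 20, and that only in Th17 8 and 12.

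At Tcf7 a single element was restricted in this way, 41.9 kb upstream of the start at chr11:52324147-52325715. Its percentiles were 87.1 and 78.8 in Th9 and 64.6 and 47.0 in Th2, with no peak in Th17, and both Th9 libraries were above both Th2 libraries. Lef1 had no such element, and nor did Id3.

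Satb1 had 4. The intergenic element 23.9 kb upstream (chr17:51856425-51857969) was shared by Th9 and Th2, at percentiles 57.8 and 53.1 in Th9 against 83.3 and 84.4 in Th2. Its peaks were 274 and 1156 bp wide in Th9 and 1343 and 1545 bp in Th2, so Th2 was both stronger and wider. An intronic element 47.4 kb downstream of the start was called only in Th2, at 70.1 and 58.2. Nearby, 44.6 kb downstream, an element was called in Th2 (57.8 and 52.5) and in Th17 (68.3 and 68.1) but not in Th9. The remaining Satb1 element, in an exon 65.6 kb downstream, was among the weakest, at 6.80 and 17.6 in Th2. It is named here after its value was seen.

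Bach2 held 13 of the 31. Called only in Th2 were 7 intronic elements, 5 of which stood between 280.4 and 306.6 kb downstream of the start, toward the 3′ end of the gene. The strongest, 302.4 kb downstream (chr4:32541024-32541396, its sequence given above), lay at percentiles 74.1 and 80.5. It was followed by elements 283.3 kb downstream, at 64.0 and 79.0, 27.6 kb downstream, at 34.0 and 59.3, and 306.6 kb downstream, at 39.8 and 46.2. The other 3 had mean percentiles between 2.47 and 36.0. Of these Th2 elements, those 27.6, 241.2, 280.4, 298.9 and 306.6 kb downstream had a fold enrichment under the weakest call of Th9 replicate 1. For most of the group toward the 3′ end, the lack of a call in that library therefore says nothing about Th9.

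Th9 and Th2 shared 4 Bach2 elements that Th17 lacked. The intronic element 29.4 kb downstream (chr4:32268029-32268420) lay at 71.1 and 72.2 in Th9 and at 81.7 and 83.7 in Th2, and the one 269.8 kb downstream (chr4:32508338-32508821) at 73.0 and 76.0 in Th9 and 79.5 and 70.9 in Th2. An element over an exon 343.5 kb downstream was at 44.1 and 62.1 in Th9 against 82.1 and 83.3 in Th2, so Th2 was higher there. The fourth, 164.8 kb downstream, ran the other way, at 53.3 and 74.7 in Th9 and 38.8 and 5.37 in Th2. Th2 and Th17 shared the element 190.8 kb downstream, at 65.1 and 64.6 in Th2, with 78.4 and 56.3 in Th17. The element called only in Th9, 56.1 kb downstream, was weak, with a mean percentile of 28.3.

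At Foxo1 all 3 restricted elements were called only in Th17. The strongest was the one printed above, 129.9 kb downstream of the start (chr3:52398029-52398352), at percentiles 60.1 and 56.9. An intronic element 75.4 kb downstream (chr3:52343351-52344116) was close to it, at 59.2 and 56.1, and the one 37.5 kb upstream was low, at 16.4 and 16.1. Fold enrichment was between 2.31 and 2.41 in the 2 stronger elements, above the weakest call of every other library.

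Klf2 had 3, all upstream of the gene and all present in Th2. Those 29.4 and 2.5 kb upstream were called only in Th2, at 71.6 and 46.7 and at 58.2 and 59.8. The element 33.5 kb upstream (chr8:72284944-72286060) was shared with Th9, at 59.2 and 48.4 in Th9 and 73.9 and 71.4 in Th2. S1pr1 also had 3. The one 26.9 kb upstream (chr3:115740689-115743310) had the highest mean percentile of the 31, 80.5, from 79.3 and 71.3 in Th9 and 91.9 and 79.4 in Th2, with no peak in either Th17 library. In Th2 replicate 3 a single peak of 2621 bp joined what were narrower peaks in the others. Elements 34.0 kb upstream and 10.4 kb downstream were called in Th2 and Th17 but not in Th9. The first lay at 70.4 and 74.0 in Th2, with 66.2 and 60.9 in Th17, and the second at 26.7 and 38.2 and at 52.9 and 61.6.

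Bcl6 had 4, in as many patterns. Upstream of the gene, the element 27.5 kb away was called only in Th9, at 50.3 and 22.1, the one 35.0 kb away only in Th2, at 73.8 and 58.4, and the one 8.8 kb away in Th9 (69.3 and 56.1) and Th2 (9.36 and 59.7). Downstream of the gene, 26.2 kb from the start, an element was called only in Th17, at 71.4 and 41.3. The 2 Th2 replicates were far apart at the element 8.8 kb away.

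**Figure D2:**
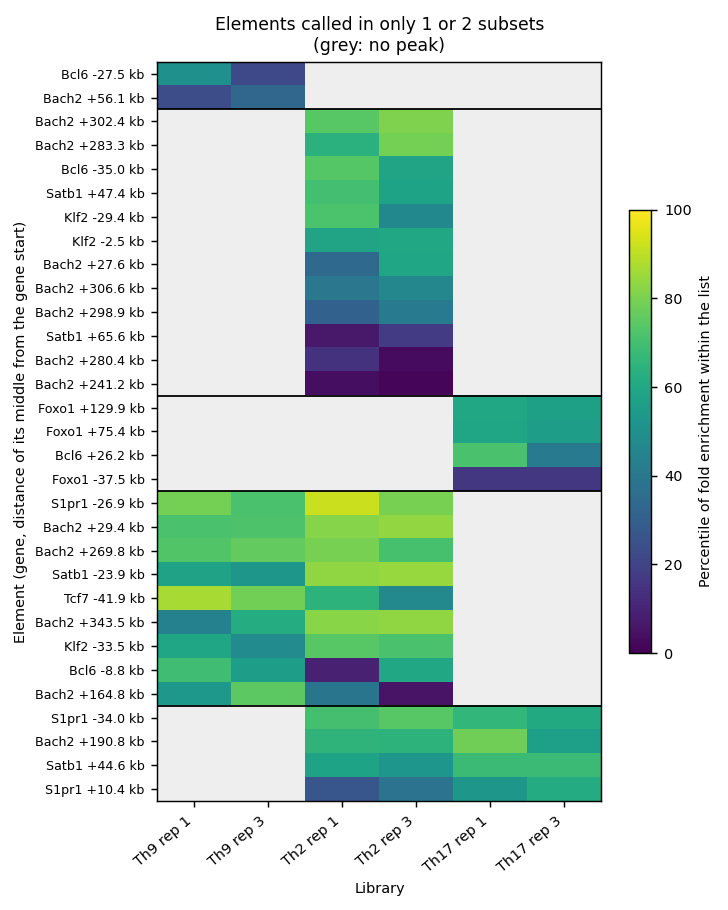
Percentile of fold enrichment (colour, 0 to 100) of the 31 elements called in only 1 or 2 subsets (rows, by gene and distance of the middle from the gene start) in each library (columns), with grey where there was no peak. Black lines divide the patterns, which from top to bottom are Th9 only, Th2 only, Th17 only, Th9 with Th2, and Th2 with Th17, and the brightest cell is Th2 replicate 1 of the S1pr1 element 26.9 kb upstream, at 91.9.

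Whether strength differed at the elements open in every library was tested next, on the log2 fold enrichment of the strongest peak of each element after quantile normalization, with limma fitted to all 50493 elements called in every library. Of the 88 elements of the 9 genes, 17 differed in at least 1 comparison (adjusted p under 0.05). The share of all elements tested that differed in at least 1 comparison was not computed, so only the shares by comparison can be set beside it. Between Th9 and Th2, 3 were higher in Th9 and 1 lower, against 1.01% and 2.18% of all elements tested. Between Th9 and Th17, 3 were higher in Th9 and 4 lower, against 3.11% and 2.9%. Between Th2 and Th17, 8 were higher in Th2 and 5 lower, against 5.04% and 2.4%. The balance of directions against Th17 depended on the scaling. Without normalization 7 were higher in Th9 than in Th17 and 1 lower, against 5.01% and 0.947% of all elements, and 12 were higher in Th2 than in Th17 and 1 lower, against 6.8% and 0.854%. The median of all elements was then 0.18 for Th9 minus Th17 and 0.09 for Th2 minus Th17. With peak area, which is fold enrichment times width and was chosen after the data were seen, the counts were 4 and 3, and 11 and 2. Of all elements these were 2.43% and 1.7%, and 3.74% and 1.16%. As shares of the 88, calls made up 4.55%, 7.95% and 14.8% in these comparisons, beside 3.19%, 6.01% and 7.44% of all elements. The median difference of the 88 was 0.00386, 0.0431 and -0.00350 on the log2 scale, beside 0.0155, -0.00117 and -0.0320 over all elements. The calls fell on 6 of 22 elements at Bach2, 5 of 11 at S1pr1, 2 of 9 at Satb1, 1 of 16 at Lef1, 1 of 8 at Klf2, 1 of 8 at Id3, 1 of 2 at Bcl6, 0 of 7 at Tcf7 and 0 of 5 at Foxo1. How often other gene windows hold such shares was not computed, so these counts are no result about single genes.

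The calls rested on few libraries. The 17 elements gave 24 calls, of which 17 were kept without Th2 replicate 3, 17 without Th9 replicate 3, 15 without Th9 replicate 1, 14 without Th2 replicate 1, 9 without Th17 replicate 1 and 3 without Th17 replicate 3. The S1pr1 element 46.4 kb upstream was the 1 element whose call, of Th2 against Th17, passed in every fit that left out a library. Direction was the same in all of these fits. Of the 24 calls, 16 were kept without normalization, 16 with ranks turned to normal scores, 22 with a mean over peaks weighted by width and 9 with peak area.

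At Lef1 the element that differed lay over an exon 89.7 kb downstream of the start. Its percentiles were 80.2 and 57.0 in Th9, 3.01 and 4.33 in Th2, with 28.5 and 48.9 in Th17, so both Th2 libraries were near the bottom of their lists. Th9 exceeded Th2 by 0.69 ± 0.14 on the log2 scale (SE, adjusted p = 0.0146), and Th9 against Th17 gave 0.46 ± 0.14 (adjusted p = 0.0627). The call of Th9 against Th2 was lost without Th9 replicate 1 (adjusted p = 0.0599), without Th2 replicate 1 (0.0625), without Th2 replicate 3 (0.0517) and with peak area (0.107). None of the 7 Tcf7 elements in every library differed. The Tcf7 promoter came to -0.60 ± 0.19 for Th2 minus Th17, with an adjusted p of 0.0677.

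At Satb1 the 2 elements that differed both lay over annotated exons and had different orders. The one at the 3′ end of the gene, 96.4 kb downstream of the start, was lowest in Th9, at percentiles 26.4 and 44.3 against 72.0 and 69.6 in Th2, with 75.6 and 76.4 in Th17. Its peaks were 454 and 332 bp wide in Th9, 3347 and 3265 bp in Th2, with 1993 and 2100 bp in Th17, so the groups did not overlap in width either. Th9 minus Th17 was -0.65 ± 0.17 (adjusted p = 0.0358), and this call was lost without either Th9 or either Th17 library (adjusted p between 0.0561 and 0.243), without normalization (0.248) and with normal scores (0.0518). The other, 24.3 kb downstream, was highest in Th2, at 77.6 and 68.9 against 24.8 and 33.9 in Th17, while Th9 was split at 69.1 and 25.3. Th2 minus Th17 was 0.58 ± 0.15 (adjusted p = 0.0243), lost without Th2 replicate 1 (0.0778), Th17 replicate 1 (0.242) or Th17 replicate 3 (0.162), with normal scores (0.0668) and with peak area (0.139).

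At Bach2, 4 intronic elements were higher in Th2 than in Th17. The clearest, 223.8 kb downstream, lay at percentiles 93.0 and 83.3 in Th9, 92.0 and 88.6 in Th2, with 66.3 and 51.9 in Th17, so that Th9 and Th2 were alike in range and Th17 was below both. Th2 exceeded Th17 by 1.09 ± 0.20 (adjusted p = 0.00263) and Th9 exceeded it by 1.05 ± 0.20 (adjusted p = 0.00497). Without Th17 replicate 3 these came to adjusted p = 0.0563 and 0.0766, and the Th9 call was also lost without Th9 replicate 1 (0.0614) and Th17 replicate 1 (0.0503). The element 162.9 kb downstream differed by 0.74 ± 0.17 between Th2 and Th17 (adjusted p = 0.0143), the one 167.0 kb downstream by 0.66 ± 0.18 (adjusted p = 0.0283) and the one 4.1 kb downstream, also intronic, by 0.45 ± 0.13 (adjusted p = 0.0432). All 3 of these were lost without any 1 of the Th2 or Th17 libraries, with adjusted p between 0.0508 and 0.413, and with peak area (0.117 to 0.337), and the last 2 also with normal scores (0.0541 and 0.123). Their percentiles in Th9 were 91.7 and 88.3, 90.9 and 85.3, and 40.9 and 34.2.

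The other 2 Bach2 elements went in different directions. The intronic element 124.6 kb downstream was lowest in Th9, at percentiles 81.4 and 81.3 against 92.4 and 93.7 in Th2, with 91.1 and 87.5 in Th17. Th9 minus Th2 was -0.75 ± 0.19 (adjusted p = 0.0393), and it was kept in 1 of the 6 fits that left out a library, that without Th2 replicate 1. It was also lost without normalization (0.0961), with normal scores (0.0777) and with peak area (0.288). An element over an exon 322.4 kb downstream was highest in Th17, at 73.4 and 76.3 against 53.8 and 37.9 in Th9 and 34.7 and 50.6 in Th2. Th2 minus Th17 was -0.59 ± 0.16 (adjusted p = 0.0307) and Th9 minus Th17 was -0.56 ± 0.16 (adjusted p = 0.0461). With the values left without normalization these came to -0.46 and -0.36 (adjusted p = 0.201 and 0.327), and they were kept in 3 and 1 of the 6 fits without a library. Both were also lost with normal scores (0.0932 and 0.163) and with peak area (0.232 and 0.403).

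At S1pr1, 5 of the 11 elements in every library differed. Of the 4 upstream of the gene 2 passed the threshold, both higher in Th2 than in Th17, and those 44.0 and 14.5 kb upstream passed in no comparison. The one 46.4 kb upstream, whose sequence with 1 STAT and 1 TCF and LEF word is printed above, lay at percentiles 93.9 and 91.7 in Th9, 95.8 and 96.9 in Th2, with 84.0 and 80.8 in Th17. Th2 exceeded Th17 by 1.09 ± 0.17 (adjusted p = 0.00106, and between 0.000187 and 0.0231 over 13 alternatives). Th9 exceeded Th17 by 0.71 ± 0.17 (adjusted p = 0.0232), a call lost without either Th9 or either Th17 library (adjusted p between 0.0821 and 0.165). The element 48.3 kb upstream was at 66.0 and 85.6 in Th9, 92.3 and 94.2 in Th2, with 73.7 and 28.8 in Th17, and Th2 exceeded Th17 by 1.39 ± 0.27 (adjusted p = 0.00457, and 0.125 without Th17 replicate 3).

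Of the 6 elements between 25.2 and 53.8 kb downstream of the S1pr1 start, 2 passed, both highest in Th17, and the other 4 passed in no comparison. The one 32.2 kb downstream lay at 86.1 and 76.0 in Th9, 82.7 and 74.7 in Th2, with 93.2 and 94.4 in Th17, with both Th17 libraries above the other 4. Th2 minus Th17 was -1.06 ± 0.19 (adjusted p = 0.00214) and Th9 minus Th17 was -0.90 ± 0.19 (adjusted p = 0.00882). Without Th17 replicate 3 the adjusted p came to 0.0667 and 0.162, and for Th9 it was 0.0632 without Th9 replicate 3. At the element 41.3 kb downstream Th17 was again highest, but Th9 was below Th2, at 57.9 and 54.6 in Th9, 72.0 and 63.2 in Th2, with 83.4 and 86.1 in Th17. Th17 exceeded Th9 by 0.86 (Th9 minus Th17 -0.86 ± 0.19, adjusted p = 0.0138) and Th2 minus Th17 was -0.68 ± 0.19 (adjusted p = 0.0401). These calls were lost without normalization (adjusted p = 0.0768 and 0.269) and without Th17 replicate 3 (0.162 and 0.329), the first also without Th9 replicate 1 (0.0975), and the second also without either Th2 library or Th17 replicate 1 (0.0640 to 0.152). With peak area they came to 0.0509 and 0.105, and the second was lost with normal scores (0.100). The S1pr1 promoter was highest in Th9, at 97.2 and 92.7 against 91.8 and 89.4 in Th2, with 88.5 and 84.2 in Th17. Th9 exceeded Th17 there by 0.76 ± 0.18 (adjusted p = 0.0193), lost without Th9 replicate 1 (0.147) or either Th17 library (0.122 and 0.180) and with peak area (0.109).

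**Figure D3:**
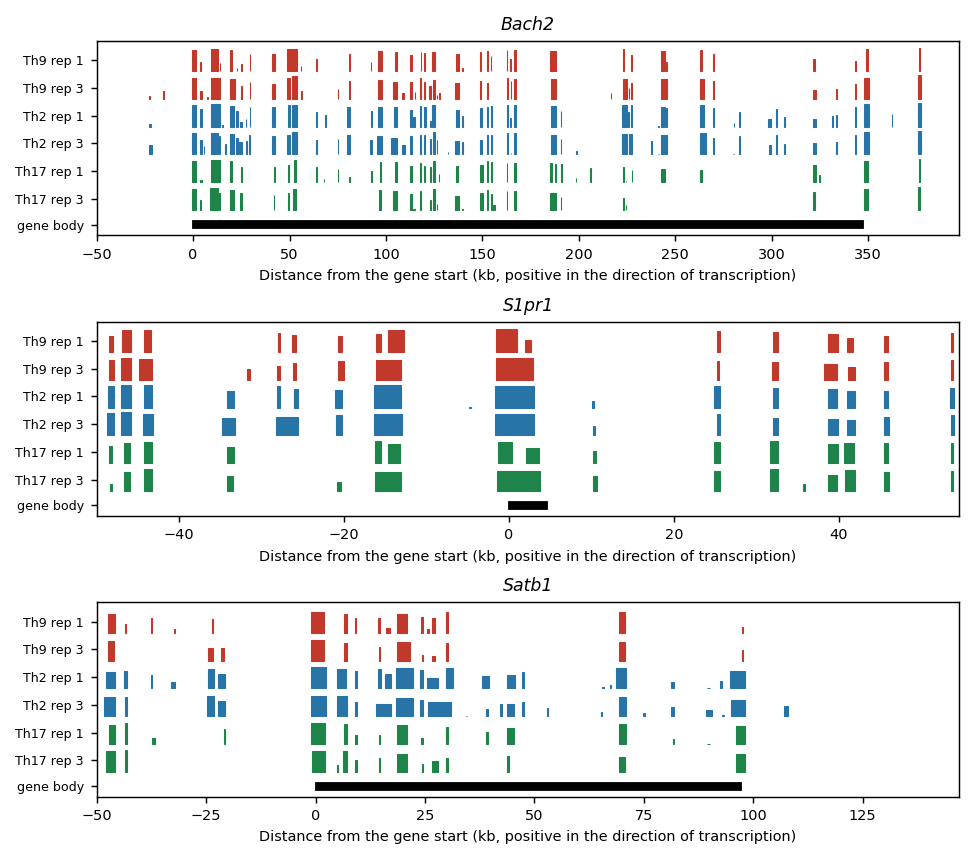
Peaks of each library (bars as wide as the peak, with height the percentile of fold enrichment, coloured by subset) along the windows of Bach2, S1pr1 and Satb1, with distance from the gene start in kb on the horizontal axis and the gene body in black. At S1pr1 the cluster 26.9 kb upstream is missing from both Th17 libraries, and at Satb1 the Th2 libraries have the most peaks, 25 and 25.

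At Klf2 the element 3.8 kb downstream of the start, just past the gene, lay at percentiles 81.6 and 67.8 in Th9, 87.4 and 82.6 in Th2, with 43.0 and 46.8 in Th17. Th2 exceeded Th17 by 0.92 ± 0.18 (adjusted p = 0.00511), and the adjusted p came to 0.0859 without Th17 replicate 1 and 0.0597 without Th17 replicate 3. Both Th9 libraries also stood above both Th17 libraries, but Th9 against Th17 missed the threshold (0.56 ± 0.18, adjusted p = 0.0873). None of the 5 Foxo1 elements in every library differed.

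At Id3 and Bcl6 the elements that differed were lowest in Th2. In the Id3 window the element lay 34.7 kb downstream of the start, over an exon of the neighbouring E2f2, which encodes a cell cycle transcription factor. Its percentiles were 87.1 and 87.7 in Th9, 68.8 and 67.4 in Th2, with 87.3 and 85.6 in Th17. Th9 exceeded Th2 by 0.80 ± 0.19 (adjusted p = 0.0346) and Th2 minus Th17 was -0.77 ± 0.19 (adjusted p = 0.0200). The first was lost in all 6 fits that left out a library (adjusted p between 0.054 and 0.192) and the second without Th2 replicate 1 (0.106) or either Th17 library (0.111 and 0.172). With peak area both were lost, the second at 0.0988, and the second was also lost without normalization (0.176).

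The Bcl6 element spans the promoter and the 5′ part of the gene, 9173 bp in all (chr16:23981018-23990190). Its strongest peak lay at percentiles 96.0 and 96.5 in Th9, 87.4 and 83.7 in Th2, with 94.7 and 96.2 in Th17, so both Th2 libraries were below the other 4. Th9 exceeded Th2 by 1.02 ± 0.18 (adjusted p = 0.00771) and Th2 minus Th17 was -0.95 ± 0.18 (adjusted p = 0.00359). The peak at the start itself, however, was 1474 and 1443 bp wide in Th9, 5843 and 4898 bp in Th2, with 2308 and 1386 bp in Th17. Both Th2 peaks were thus the widest. With a mean over the peaks weighted by width the differences were 0.32 and -0.18 (adjusted p = 0.364 and 0.659), and with peak area 0.28 and -0.43 (0.611 and 0.409). The call therefore holds for the strongest peak and not for the element as a whole. It was also lost without Th9 replicate 3 for Th9 against Th2 (0.0682) and, for Th2 against Th17, without Th17 replicate 3 (0.0960) and without normalization (0.0581).

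**Figure D4:**
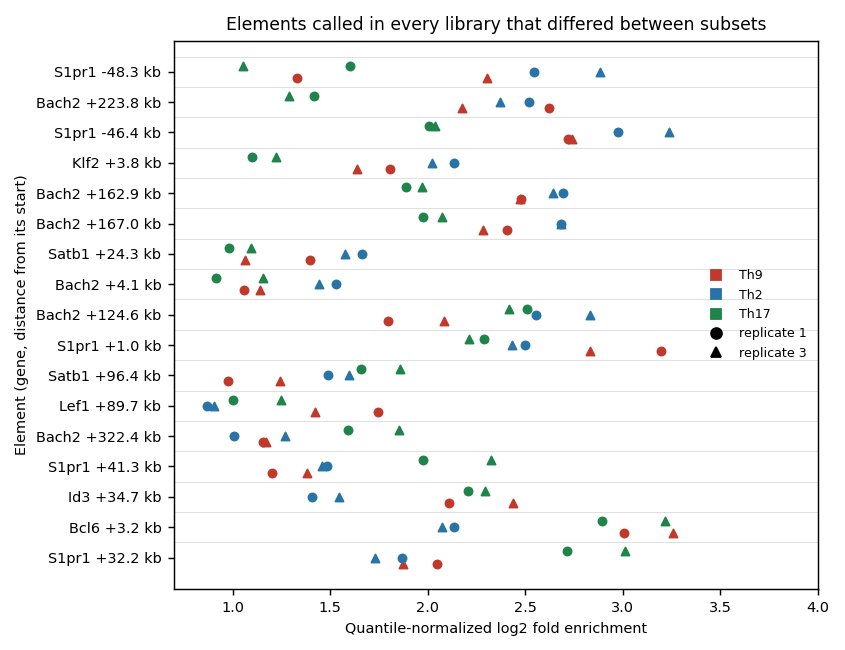
Quantile-normalized log2 fold enrichment (horizontal axis) in each library of the 17 elements that differed between subsets (rows, by gene and distance from its start in kb), coloured by subset, with circles for replicate 1 and triangles for replicate 3. Th17 lies lowest in the upper rows, such as S1pr1 48.3 kb upstream, and highest in rows such as S1pr1 32.2 kb downstream, where its 2 libraries are at 2.72 and 3.01.

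Libraries of 1 subset were finally compared with libraries of different subsets over all 231 elements. The Jaccard index, the number of elements called in both libraries over that called in either, was 0.723 ± 0.0455 within a subset (SD over 3 pairs) and 0.636 ± 0.0293 between subsets (12 pairs). The difference was 0.0877 (one-sided exact permutation test, p = 0.0667, adjusted over 3 measures 0.100), and 0.0667 is the smallest p the 15 arrangements of 6 libraries allow. Of the 12 pairs between subsets 1, Th9 replicate 1 with Th2 replicate 1 at 0.703, was above the lowest pair within a subset, the Th9 pair at 0.686. The Spearman correlation of percentiles over the 88 elements called in every library was 0.912 ± 0.0213 within and 0.738 ± 0.0710 between subsets, a difference of 0.173 (exact permutation test, p = 0.0667, adjusted 0.100), and no pair between subsets reached the lowest pair within. By mean correlation the subset pairs were ordered Th9 with Th2 (0.809), Th9 with Th17 (0.740) and Th2 with Th17 (0.665). The range of Th9 with Th2, 0.792 to 0.829, lay above that of Th9 with Th17, 0.694 to 0.775, which overlapped that of Th2 with Th17, 0.601 to 0.723. These pairs share libraries, and the elements of a list are not independent replicates.

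**Figure D5:**
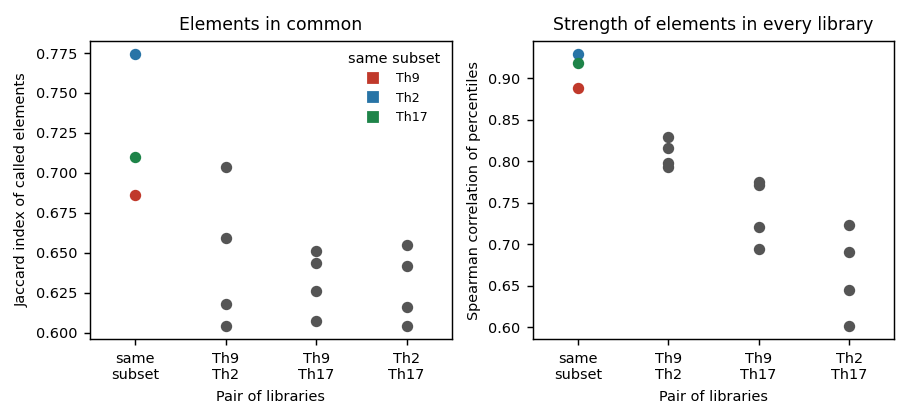
Jaccard index of called elements (left) and Spearman correlation of percentiles over elements called in every library (right) for each of the 15 pairs of libraries, with the 3 pairs of 1 subset coloured by subset and the 12 pairs of different subsets in grey. On the right the pairs of 1 subset, from 0.888 to 0.929, are above all others, and on the left 1 grey pair at 0.703 is above the Th9 pair.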

How the data were processed

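ATAC-seq was measured in 6 mouse libraries, 2 each of Th9, Th2 and Th17 cells. The authors trimmed reads with Trim Galore 0.4.3, aligned them to mm10 with bowtie2, removed duplicates with Picard and set aside mitochondrial and poorly mapped reads, and per the submitters' processing notes called peaks with MACS2 2.1.0. By the methods, peaks were called in broad mode with the local background turned off, and 1 list was deposited per library. Any control, the significance cutoff and any shift for the Tn5 offset are not given in the sources used here. The lists deposited by the authors give each peak's fold enrichment, a linear ratio to the genome-wide background, and the −log10 of its p-value and q-value, which was never below 1.02.

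Peaks of the 6 lists were joined where they overlapped or touched, a call needing at least 1 bp. Gene bodies came from GENCODE M21 (basic annotation, GRCm38.p6), whose chromosomes match the lists. Fold enrichment was converted to a percentile within its list. Whether the listed value is the height of a peak or a mean over its width is not given in the sources used here. Strengths of peaks that differ in width may therefore not be comparable. Background coverage was recovered from the most frequent flat peak, whose fold enrichment and p-value both fix its number of fragments. It is the depth behind each list, and no read counts were used. Strength was tested with limma 3.58.1 (R 4.3.3, trended empirical Bayes, Benjamini-Hochberg adjustment over all 50493 elements called in every library) on quantile-normalized log2 fold enrichment. One mean per subset was fitted, with a spread shared by all 6 libraries. Other steps used Python 3.11.15, numpy 2.4.6, pandas 2.3.3, scipy 1.17.1 and matplotlib 3.10.9, and the joining, pattern, permutation and limma steps were tested on simulated data. Pairs of libraries were compared with an exact permutation test, one-sided, of the 15 arrangements. Alternatives were filters on fold enrichment and −log10 q, equal list lengths, other windows, overlaps and normalizations, leaving out each library, and peak area, which was added after the data were seen.

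The 9 genes, the accompanying gene lists and the words searched were chosen with earlier results of these data known, and some genes of those lists are not reported here. Elements to be named were those called in only 1 or 2 subsets, up to the 25 of highest mean percentile, and those past the limma threshold. Weaker ones among the 31 are also named, after their values were seen.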

Additional observations from a re-analysis of the deposited data

How the results depend on the processing

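The sharing of elements and the correlation of strength stayed higher within than between subsets under every alternative run, by 0.0863 to 0.180 and by 0.156 to 0.268, although no arrangement could give a p under 0.05. The difference in count changed sign at equal list length (-3.67). Counts of restricted elements moved with the number of libraries required, the filter and the window. With −log10 q of at least 5 they were 1 only in Th9, 0 only in Th17, 4 in Th9 with Th2 and 1 in Th9 with Th17. With fold enrichment of at least 4 they were 1 only in Th9, 5 only in Th2, 0 only in Th17, 10 in Th9 with Th2, 0 in Th2 with Th17 and 1 in Th9 with Th17. None of the 31 kept all its calls there, so these were other elements or elements that had changed pattern. At equal list length they were 1 only in Th9 and 3 in Th9 with Th17. In gene bodies alone they were 1 only in Th9, 1 only in Th17, 4 in Th9 with Th2 and 2 in Th2 with Th17, and with 10 kb on either side 1, 2 and 5 for the first 3 of these. With 100 kb on either side Th9 with Th2 had 14. With at least 50% of the element covered, 22 were only in Th2, 8 only in Th17, 10 in Th2 with Th17 and 1 in Th9 with Th17. With either library sufficing, the counts were 20, 32 and 16 for Th9, Th2 and Th17 alone, 17 for Th9 with Th2, 14 for Th2 with Th17 and 9 for Th9 with Th17.

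The limma calls of Th9 against Th2, Th9 against Th17 and Th2 against Th17, which were 4, 7 and 13, came to 1, 0 and 1 with fold enrichment of at least 4, and to 3 and 7 for the last pair of comparisons with −log10 q of at least 5. In gene bodies alone the last pair came to 4 and 7, with 10 kb to 4 and 8, and with 100 kb all 3 came to 7, 12 and 20. The filters left fewer elements to test and the windows changed which elements were counted. With peak area Th9 against Th2 gave 0. Without normalization the totals were 4, 8 and 13, but lower in Th9 and in Th2 than in Th17 were 1 and 1, in place of 4 and 5. Leaving out 1 library at a time gave 1 to 3, 1 to 9 and 4 to 16, and for the restricted elements 2 to 17 only in Th9, 13 to 25 only in Th2, 4 to 12 only in Th17, 10 to 16 in Th9 with Th2, 4 to 10 in Th2 with Th17 and 0 to 3 in Th9 with Th17. The low ends of the limma ranges came without Th9 replicate 1 or Th2 replicate 3 for Th9 against Th2, without Th9 replicate 1 or Th17 replicate 3 for Th9 against Th17, and without Th17 replicate 3 for Th2 against Th17. Replicate numbers were not taken to pair the samples, since the deviations of same-numbered libraries correlated at 0.168 (Th9 with Th2), 0.0313 (Th9 with Th17) and -0.00984 (Th2 with Th17). With the replicate number as a replicate block the counts were 4, 8 and 15, and the block left all 24 calls in place. Under the replicate block the difference in count was 1.00, that in sharing 0.0926 and that in correlation 0.181, where the smallest exact permutation p allowed is 0.167. The cause of these movements was not tested. The weakest call of Th9 replicate 1 had a fold enrichment of 2.11, the highest such value, while its list was the longest, at 142213 peaks.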

Other observations

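Accessible elements of 6 further genes of the naive and memory programme (Ccr7, Il7r, Foxp1, Myb, Klf3 and Zeb1) were read in the same way. Ccr7 encodes a chemokine receptor that guides entry into lymph nodes, and Il7r encodes the receptor chain for the survival cytokine IL-7. Their windows held 163 elements, of which 70 (42.9%) were called in every library. The libraries called 115 and 108 in Th9, 127 and 126 in Th2, with 98 and 89 in Th17. Of single gene windows genome-wide, 13% had more elements in both Th2 libraries than in any other. Fewer in both Th17 libraries than in any other were found in 15.2%. The share for sets of windows was not computed, so this order is no result about these genes. Elements shared by Th9 and Th2 alone numbered 15 (9.20%, against 2% genome-wide). The Foxp1 window held 11 of these 15, Il7r 3, Klf3 1, and Ccr7, Myb and Zeb1 0 each. Foxp1 also supplied 83 of the 163 elements. The share of 9.20% therefore rests mainly on 1 gene and is no result about the 6 as a group. Called only in Th9 were 7, only in Th2 8 (6 of them at Foxp1) and only in Th17 6 (genome-wide 1.31%, 2.87% and 1.7%). Of the 70 elements tested with limma, 12 were higher in Th9 than in Th17 and 3 lower (against 3.11% and 2.9% of all elements tested), with a median difference of 0.18 on the log2 scale, and 6 were higher in Th2 than in Th17 and 1 lower (against 5.04% and 2.4%). Without normalization these counts were 15 and 1, and 12 and 1. Promoters of all 6 were called in every library, that of Ccr7 at percentiles between 85.2 and 93.1 and that of Klf3 between 94.4 and 97.5.

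Windows of 5 effector-side genes (Prdm1, Id2, Zeb2, Tox and Cxcr5) held 96 elements, 39 of them in every library. Prdm1 encodes BLIMP-1, a repressor that opposes BCL6, and Id2 encodes an inhibitor related to ID3. The libraries called 56 and 57 elements in Th9, 68 and 75 in Th2, with 64 and 61 in Th17. No element was called only in Th9, and 6 each were called only in Th2, only in Th17 and in Th9 and Th2 alone (genome-wide 1.31% for Th9, and 2.87%, 1.7% and 2% for the others in that order). Of the 39 tested, 6 were higher in Th9 than in Th17 and 4 lower (against 3.11% and 2.9% of all elements tested), 5 were higher in Th2 than in Th17 and 3 lower (against 5.04% and 2.4%), and 1 was lower in Th9 than in Th2 (against 2.18%). Without normalization the counts against Th17 were 6 and 2 for Th9, and 6 and 0 for Th2.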
